A study of Mus musculus with 27 samples.

Results

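The 10 genes described here belong to the actin-based contractile apparatus or its surroundings: the smooth muscle actins Acta2 and Actg2, the actin-binding proteins Tagln, Cnn1, Cnn2 and Cald1, the tropomyosins Tpm1 and Tpm2, the regulatory light chain Myl9 and the secreted matrix protein Postn. They were taken by symbol from a table of gene expression, where they are 10 of 23604 genes. They were chosen with the levels in these libraries known, so their RNA levels are given as a description without p-values.

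RNA-seq was made of 19 libraries of mouse cells, all labelled WT for genotype, although some of the fPSC lines carry reporter genes. Naive embryonic stem cells (mESCs, 2 libraries) were grown without feeders on gelatin with inhibitors of MEK and GSK3 and with LIF. Epiblast-like cells (EpiLCs, 2 libraries) were kept in N2B27 medium with KSR, a serum replacement, Activin A and bFgf2, and Epiblastoids (days 2, 3 and 4, with 1 library each) were grown in the same medium but embedded in Matrigel. Formative cells (fPSCs) were also mixed into Matrigel (the labels write "on Matrigel"), with Activin A, bFgf2 and the tankyrase inhibitor XAV939, which lowers Wnt signalling. They comprise a first-passage library (P1), 7 long-term libraries between P10 and P30 from several mESC lines (CMT, the Sox1-GFP reporter line 46C, the Blimp1 and Stella reporter line BVSC, and the fluorescent reporter line ROSAmTmG), and 1 library each of cells derived from E5.5 and E6.5 epiblasts. Primed epiblast stem cells (EpiSCs, 2 libraries) were the only bulk group grown on a layer of mouse embryonic fibroblasts (MEFs), inactivated with Mitomycin C, with KSR, Activin A, bFGF2 and XAV939. Removal of the MEFs before RNA extraction is not described in the sources used here. Chromatin marks, DNA methylation and single-cell counts were measured in fPSCs.

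Contraction and cell tension rest on myosin pulling on actin filaments. Tropomyosin runs along the filament, caldesmon and calponin restrain the motor, and phosphorylation of the myosin light chain switches it on. Smooth muscle cells hold large amounts of the muscle forms of these proteins, but activated fibroblasts, cultured adherent cells and some early embryonic cells make many of them too. Several of these genes are classical targets of serum response factor (SRF) and its actin-sensitive partners of the myocardin family, which bind a short A/T-rich element called the CArG box.

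On the mm9 assembly Tagln lies at chr9:45737711-45744141, Acta2 lies at chr19:34315580-34329826, Actg2 lies at chr6:83462899-83486259, Cnn1 lies at chr9:21903725-21914074 and Cnn2 lies at chr10:79451329-79458807. Myl9 lies at chr2:156601156-156607394, Tpm1 lies at chr9:66870397-66897213, Tpm2 lies at chr4:43527583-43536637, Cald1 lies at chr6:34548500-34725473 and Postn lies at chr3:54165031-54194961. The 10 genes are thus spread over 7 chromosomes, with Tagln, Cnn1 and Tpm1 on chromosome 9 and Actg2 and Cald1 on chromosome 6.

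The start regions of the genes show how differently they are built. The 250 bases before the annotated start of 4 of them are printed 5′ to 3′ on the gene's strand, with each CpG in capitals, because these 4 stand for the heavily methylated and the Polycomb-marked starts described further on. The bases come from the mm9 assembly, at chr9:45744142-45744391 (minus strand) for Tagln, chr19:34329827-34330076 (minus strand) for Acta2, chr10:79451079-79451328 (plus strand) for Cnn2 and chr2:156600906-156601155 (plus strand) for Myl9.
Tagln: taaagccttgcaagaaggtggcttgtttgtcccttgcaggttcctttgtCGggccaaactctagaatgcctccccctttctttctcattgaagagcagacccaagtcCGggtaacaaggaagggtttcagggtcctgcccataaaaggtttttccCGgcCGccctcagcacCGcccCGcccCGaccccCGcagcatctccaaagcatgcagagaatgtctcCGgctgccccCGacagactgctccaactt
Acta2: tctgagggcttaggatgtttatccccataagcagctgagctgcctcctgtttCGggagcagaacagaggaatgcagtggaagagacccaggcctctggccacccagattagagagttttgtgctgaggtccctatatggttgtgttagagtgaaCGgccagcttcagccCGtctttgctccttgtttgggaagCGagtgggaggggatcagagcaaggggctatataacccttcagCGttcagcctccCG
Cnn2: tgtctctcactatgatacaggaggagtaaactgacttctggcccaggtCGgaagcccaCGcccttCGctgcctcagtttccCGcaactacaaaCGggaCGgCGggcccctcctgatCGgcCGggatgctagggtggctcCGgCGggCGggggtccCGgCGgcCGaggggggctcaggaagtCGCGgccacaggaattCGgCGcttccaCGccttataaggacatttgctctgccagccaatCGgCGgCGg
Myl9: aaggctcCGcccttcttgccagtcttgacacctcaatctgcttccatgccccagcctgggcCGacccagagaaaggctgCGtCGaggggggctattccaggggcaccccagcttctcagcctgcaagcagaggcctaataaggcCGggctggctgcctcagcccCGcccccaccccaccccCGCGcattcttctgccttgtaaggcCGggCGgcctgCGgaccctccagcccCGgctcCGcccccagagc
There are 10 CpGs in the Tagln stretch, 6 in that of Acta2, 23 in that of Cnn2 and 13 in that of Myl9. A CArG box (searched by its consensus on both strands, with matches not allowed to hold any base other than A or T in the core) was found within 250 bases before to 50 bases after the start in 327 of 22072 promoters (1.48%). It was found in 4 of the 10 genes. The Tagln window held CCATAAAAGG, beginning 112 bases before the start, and CCAAATATGG, beginning 11 bases after it. The Actg2 window held CCTTATATGG and CCTTTTTAGG, beginning 68 and 31 bases before the start. The Cnn2 match CCTTATAAGG began 40 bases before the start, and the Myl9 match CCTAATAAGG began 117 bases before it. Among 12 paralogs with a promoter, Actb, Actg1 and Acta1 held a match. A match is a run of letters and not a measured binding site, and the lack of one says only that these letters are not in the window.

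Expression was given as FPKM, fragments scaled for transcript length and library size, so levels can be compared between genes. Summed over the 10 genes, FPKM reached 1314 and 1485 in the EpiSC libraries, against 49.7 to 161 in the other 17 libraries. The 10 genes thereby took 0.39% and 0.455% of all FPKM in EpiSCs and 0.0318% and 0.0418% in EpiLCs. In EpiSCs Tpm1, Cnn2, Tagln and Acta2 made up most of the sum, with 30.6%, 19.8%, 21% and 12.3% of it in the first library. Both EpiSC libraries lay above all 17 others for 9 of the 10 genes, and the exception was Myl9. Of 19501 genes detected in any library, 11.7% did the same. In bulk RNA, fewer expressing cells and less RNA per cell cannot be told apart.

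**Figure D1:**
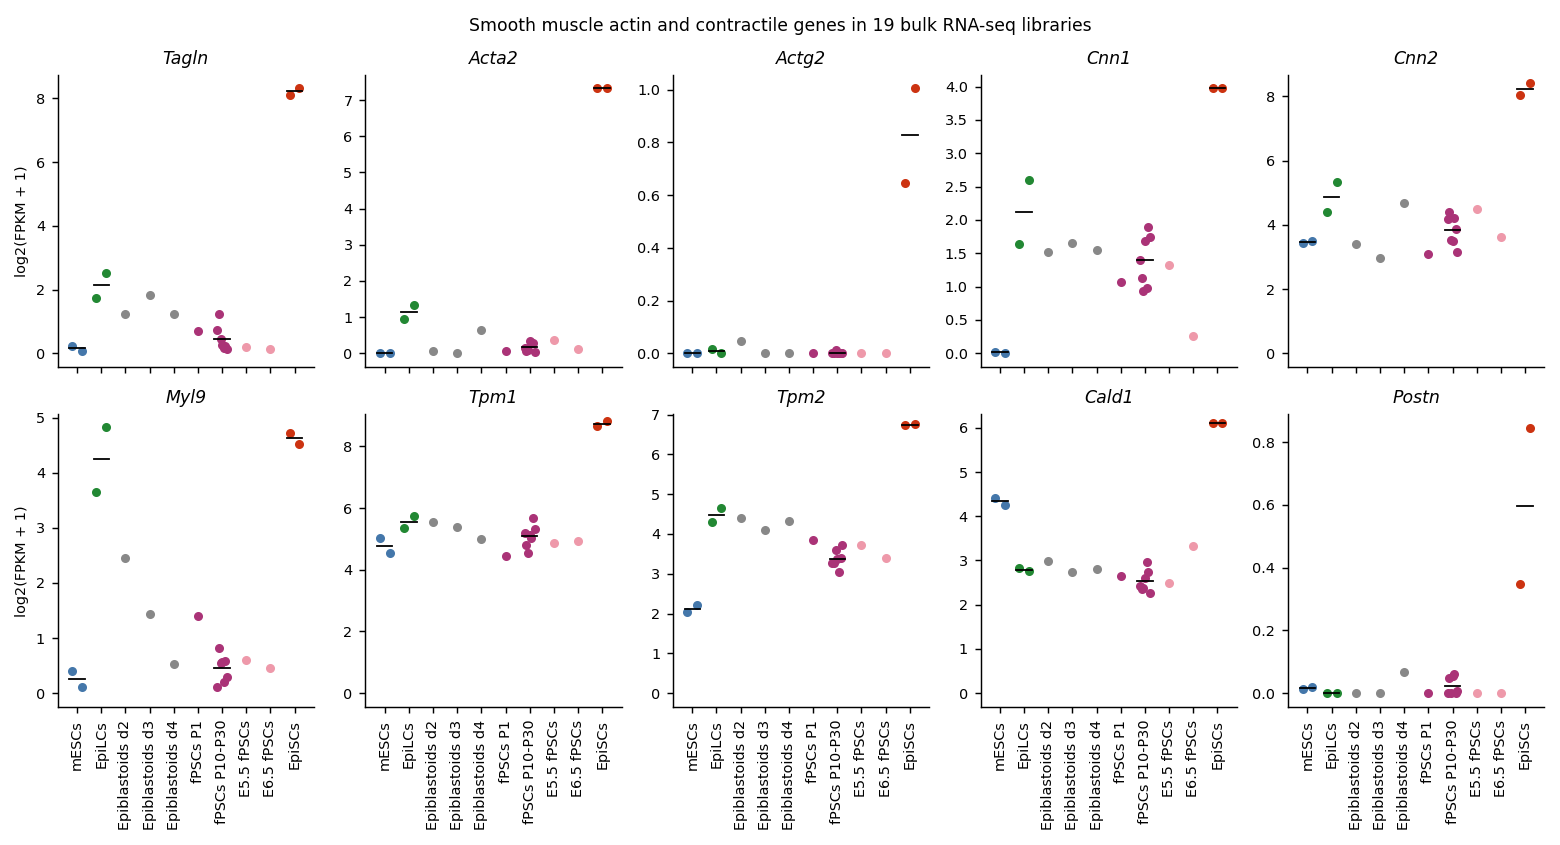
Level of each gene, as log2(FPKM + 1), in all 19 bulk libraries. Each point is a library, horizontal lines are means of groups with several libraries, and the vertical scale differs between panels. The 2 EpiSC points lie above all others except for Myl9, where an EpiLC library at 27.3 FPKM is highest.

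The smooth muscle actin Acta2, the actin of vascular smooth muscle and myofibroblasts, was listed at 0 in both mESC libraries. It was at 0.934 and 1.54 FPKM in EpiLCs and at 161 and 160.2 FPKM in EpiSCs. In the 7 long-term fPSC libraries it ran from 0.0219 to 0.267 with a median of 0.113. The EpiSC mean was 129.8 times that of EpiLCs and 1182 times that of the fPSCs, where the latter ratio rests on values near the floor. Outside EpiSCs the highest value was that of the second EpiLC library. Epiblastoids were at 0.0493, 0 and 0.567 FPKM on days 2, 3 and 4. The enteric smooth muscle actin Actg2 stayed low throughout, at 0.565 and 1.01 FPKM in EpiSCs and listed at 0 in 14 of the 19 libraries. The muscle actins thus differed strongly from each other within EpiSCs. Because the actin coding sequences are very alike, reads of Acta2, Actg2, Acta1 and Actc1 may have been divided unevenly between them.

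Tagln, or SM22α, bundles actin filaments and is an early marker of smooth muscle. It was at 0.164 and 0.0629 FPKM in mESCs, at 2.34 and 4.73 FPKM in EpiLCs and at 276 and 322 FPKM in EpiSCs. The fPSC libraries ran from 0.098 to 1.35 with a median of 0.209 FPKM. They split by protocol text. In P10, P20 and P30, which carry that of the EpiSCs, Tagln was at 0.374 to 1.35 FPKM. In the 4 fPSC libraries of another protocol text it was at 0.098 to 0.209 FPKM. The EpiSC mean of 299 ± 32.1 FPKM (SD, n = 2) was 84.6 times that of EpiLCs, 702 times that of fPSCs and 2636 times that of mESCs. The ratios to fPSCs and mESCs rest on values near the floor, and the fPSC mean pools both protocol texts. On the log2(FPKM + 1) scale the differences of EpiSCs were 7.76 from fPSCs and 8.07 from mESCs. Next after EpiSCs came EpiLCs and the Epiblastoids, at 1.35, 2.53 and 1.35 FPKM on days 2, 3 and 4, and the day 3 value lay within the range of the EpiLC pair. The first-passage fPSCs were at 0.64 FPKM, inside the range of later passages, and cells from E5.5 and E6.5 epiblasts were at 0.139 and 0.106 FPKM.

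The calponins bind actin and damp the myosin ATPase. Cnn1, the form of differentiated smooth muscle, was at 0.0184 and 0 FPKM in mESCs, 2.12 and 5.05 FPKM in EpiLCs and 14.8 FPKM in both EpiSC libraries. The fPSCs lay between 0.921 and 2.73 FPKM with a median of 1.64, above both mESC libraries in each of the 7 cases. Cnn2, a form found in many non-muscle cells, was at 9.8 and 10.3 FPKM in mESCs, 20.2 and 39.1 FPKM in EpiLCs and 260.0 and 338 FPKM in EpiSCs. Thus the broadly expressed calponin was the higher of the pair in every group. It also had the larger ratio of EpiSCs to fPSCs, 21.5 times against 8.62 times for Cnn1. Against mESCs no ratio is given for Cnn1, which was close to its floor there, while Cnn2 in EpiSCs was 29.8 times the mESC mean. On the log2(FPKM + 1) scale the differences between EpiSCs and mESCs were 3.97 for Cnn1 and 4.75 for Cnn2. The fPSC libraries held between 7.96 and 20.2 FPKM of Cnn2 with a median of 13.5, a range that includes both mESC values.

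The tropomyosins were the only genes of the 10, with Cnn2 and Cald1, at 1 FPKM or more in all 19 libraries. Tpm1 was at 31.7 and 22.3 FPKM in mESCs, 39.9 and 52.8 FPKM in EpiLCs and 402 and 452 FPKM in EpiSCs. The fPSCs ran from 22.1 to 50 FPKM with a median of 34.3, overlapping both mESCs and EpiLCs. Tpm2 was lower and better separated between states. It was at 3.1 and 3.61 FPKM in mESCs, 7.25 to 12.2 FPKM (median 9.36) in fPSCs, 18.7 and 24.2 FPKM in EpiLCs and 105 and 108 FPKM in EpiSCs, with no overlap between these 4 groups. The Epiblastoids were at 20, 16.1 and 19 FPKM on days 2, 3 and 4, and first-passage fPSCs at 13.4 FPKM. Both Tpm genes make several muscle and non-muscle isoforms, which gene-level FPKM do not separate.

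Cald1, caldesmon, blocks myosin from actin until calcium is raised, and its pattern ran against the others outside EpiSCs. It was at 20.3 and 18.1 FPKM in mESCs, 6.1 and 5.78 FPKM in EpiLCs and 68.2 and 67.6 FPKM in EpiSCs. The 7 fPSC libraries lay between 3.82 and 6.78 FPKM with a median of 4.35, all below mESCs. The EpiSC mean was 3.54 times that of mESCs, but 11.4 times that of EpiLCs and 14 times that of fPSCs. Cells from E6.5 epiblasts held 9.05 FPKM and those from E5.5 epiblasts 4.65 FPKM.

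Myl9, the smooth muscle and non-muscle regulatory light chain, had the largest ratio between EpiLCs and fPSCs of the 8 genes tested. It was at 0.319 and 0.0822 FPKM in mESCs, 11.6 and 27.3 FPKM in EpiLCs and 25.4 and 21.9 FPKM in EpiSCs. The EpiLC and EpiSC pairs overlapped. The Epiblastoids, in the same medium as EpiLCs but in Matrigel, were at 4.49, 1.7 and 0.448 FPKM on days 2, 3 and 4, each day being 1 library without a replicate. First-passage fPSCs held 1.64 FPKM and long-term fPSCs 0.0869 to 0.771 FPKM with a median of 0.46. The EpiLC mean was 51.1 times the fPSC mean, against 8.3 times for Tagln, 2.25 times for Tpm2 and 1.35 times for Tpm1. The 2 EpiLC libraries differed from each other, and the second was the higher for 7 of the 10 genes, while 47.3% of all detected genes were higher in it.

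Postn, periostin, is secreted by fibroblasts and bone-forming cells and is the only member that is not part of the contractile machine. It was at 0.274 and 0.798 FPKM in EpiSCs, listed at 0 in both EpiLC libraries, and at 0.0423 FPKM or less in the 7 fPSC libraries. Its EpiSC values were above all others, yet no library reached 1 FPKM.

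**Figure D2:**
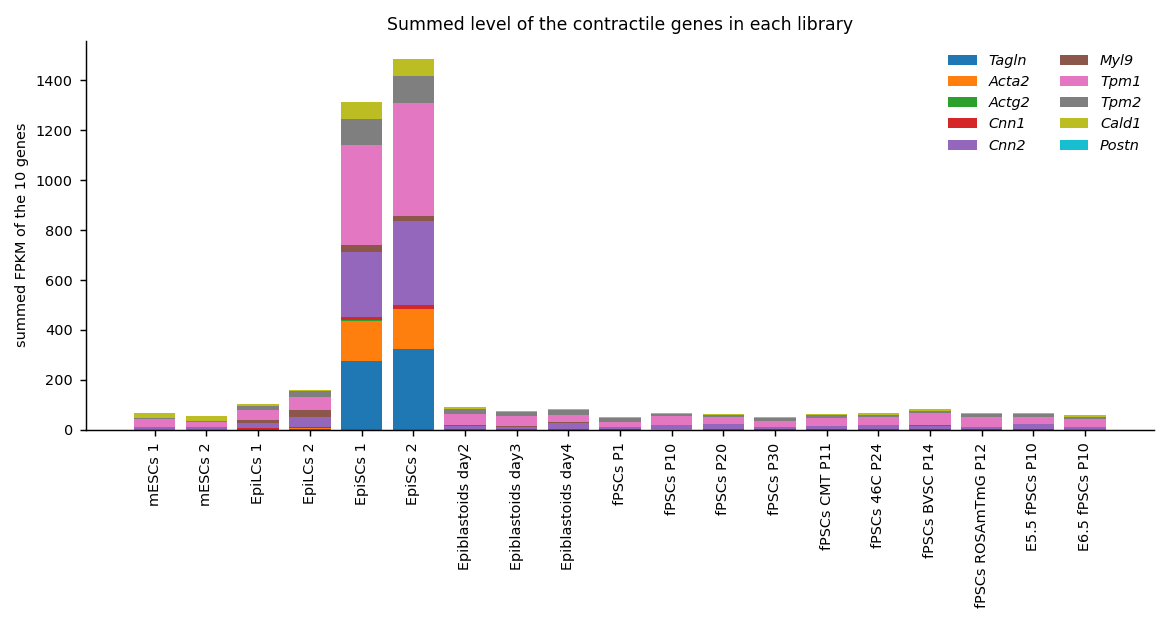
Summed FPKM of the 10 genes in each of the 19 libraries, with the share of each gene stacked in colour. The EpiSC bars reach 1314 and 1485, and the next highest bar is the second EpiLC library at 161.

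Groups were compared on the log2(FPKM + 1) scale with limma. The fit took 13 libraries, and 12513 genes that reached 1 FPKM in 2 or more of them were tested. This filter was passed by 8 of the 10 genes, all but Actg2 and Postn, and Acta2 reached 1 FPKM in only 3 libraries. A gene of any list that passed only through the EpiSC pair was tested because it was high there, which set its direction. A gene was past the threshold at an adjusted p under 0.05 with a fold change of at least 1.5. All 8 tested genes were past it and higher in EpiSCs than in mESCs, where 23.1% of all tested genes were, and than in fPSCs, where 19% were. Against EpiLCs it was 7 of the 8, with 20.4% of all genes, and Myl9 did not pass at a log2 difference of 0.38 ± 0.33 (SE). These 3 comparisons share the EpiSC libraries, and the genes were chosen on them, so nothing is read from the counts. The log2 differences between EpiSCs and fPSCs ran from 2.59 ± 0.29 for Cnn1 to 7.76 ± 0.28 for Tagln, with a median of 3.91 beside -0.02 for all tested genes. Against mESCs the median was 4.49 beside -0.09, and Cald1 had the smallest value at 1.77 ± 0.23.

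The states grown without feeders also differed among themselves, and the genes had been chosen with these levels known too, so nothing is read from the following counts. Between EpiLCs and mESCs, 6 of the 8 genes were past the threshold as higher in EpiLCs, beside 12.2% of all genes, and Cald1 was past it as lower, beside 17.4%. The log2 difference was 3.98 ± 0.33 for Myl9, 2.36 ± 0.23 for Tpm2 and 1.97 ± 0.35 for Tagln, while Tpm1, at 0.77 ± 0.31, did not pass. Between EpiSCs and EpiLCs the log2 difference was 0.38 ± 0.33 for Myl9 and 2.27 ± 0.23 for Tpm2, the latter within 1 SE of its EpiLC-mESC value. In fPSCs against mESCs only Cnn1, with 1.39 ± 0.29, and Tpm2, with 1.26 ± 0.18, were past it as higher, beside 17.3% of all genes. Cald1 was lower in fPSCs by a log2 difference of -1.80 ± 0.19, where 23% of all genes were lower. For Tagln, Acta2, Cnn2, Myl9 and Tpm1 the log2 differences between fPSCs and mESCs were 0.31, 0.18, 0.37, 0.19 and 0.31, and none passed. The EpiLC libraries lay above all 7 fPSC libraries for Tagln, Acta2, Myl9 and Tpm2, that is for 4 of the 10 genes, beside 14.6% of detected genes.

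**Figure D3:**
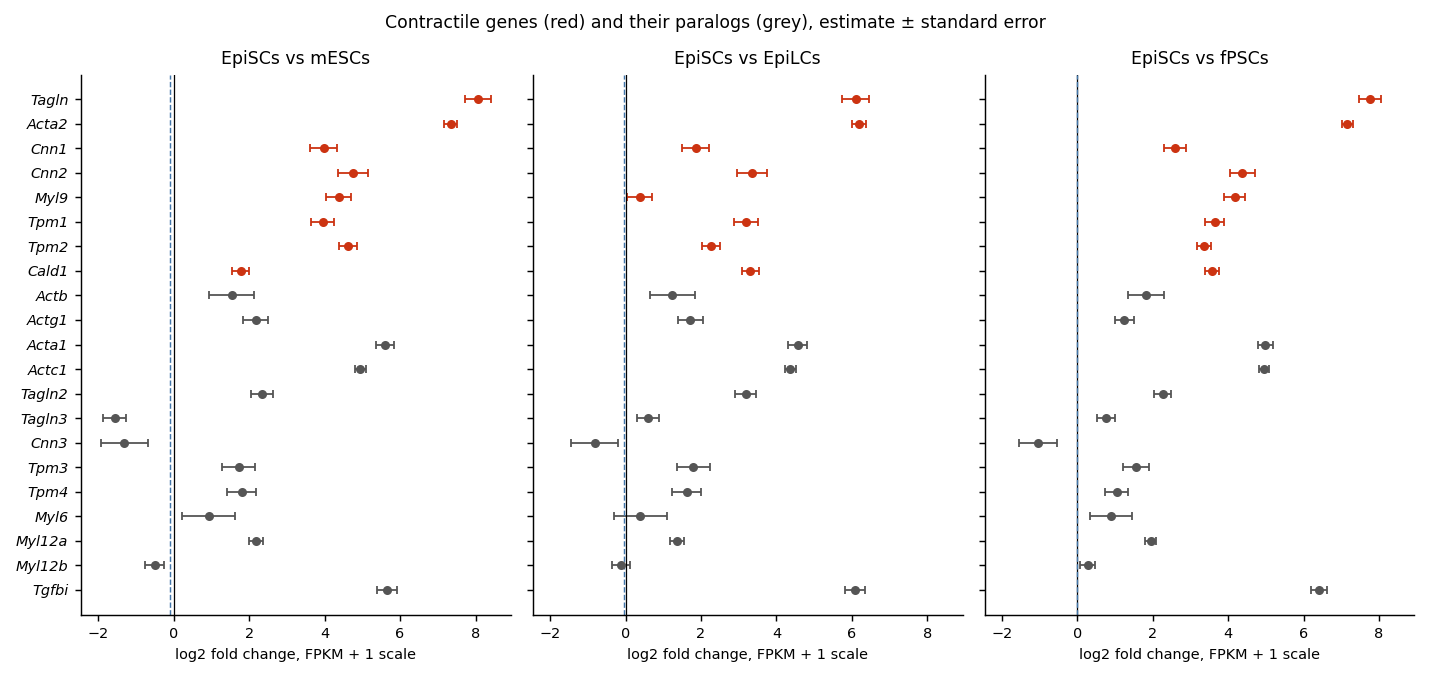
log2 difference of EpiSCs from mESCs, EpiLCs and fPSCs for the 8 tested contractile genes (red) and 13 paralogs (grey), with standard errors from limma. Dashed lines are medians of all tested genes. The medians against fPSCs are 3.91 for the contractile genes and 1.55 for the paralogs, with Myl9 near 0 against EpiLCs.

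The cytoplasmic and striated relatives of these genes were looked at for comparison. Of 13 paralogs, 10 were higher in EpiSCs than in fPSCs and none was lower, where 19% and 13.3% of all tested genes were, with a median log2 difference of 1.55. Actc1 was below 1 FPKM in every other fitted library, so it was tested only through the EpiSC pair, which set its direction. Acta1 and Tgfbi would not have passed the filter without that pair either, so nothing is read from the count. The cytoplasmic actins, which form the cortex of every cell, were already abundant. Actg1 was at 2957 and 3695 FPKM in EpiSCs and 1141 to 1973 FPKM in fPSCs (log2 difference 1.25 ± 0.26, limma adjusted p = 0.00286). Actb was at 2703 and 2735 FPKM in EpiSCs and 358 to 1370 FPKM in fPSCs (1.83 ± 0.48, limma adjusted p = 0.0109). In P10, P20 and P30, which carry the protocol text of the EpiSCs, Actb was at 1266 to 1370 FPKM. It was at 358 to 683 FPKM in the 4 fPSC libraries of another protocol text. Actg1 split likewise, at 1527 to 1973 and 1141 to 1180 FPKM. The striated actins behaved like Acta2. Acta1, of skeletal muscle, was at 41.5 and 54.8 FPKM in EpiSCs and below 1 FPKM in all 7 fPSC libraries, and cardiac Actc1 was at 31.8 and 28.3 FPKM in EpiSCs and at most 0.0266 FPKM in fPSCs. Tgfbi, a relative of periostin, was at 96.1 and 123 FPKM in EpiSCs and 0.118 to 0.768 FPKM in fPSCs, a larger difference (6.40 ± 0.21) than for any other paralog. Tpm3 was at 475 and 236 FPKM in EpiSCs and 73.5 to 161 FPKM in fPSCs. Cnn3, Myl6 and Myl12b did not pass the threshold.

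Of 10 tested genes of non-muscle actomyosin, 2 were higher in EpiSCs than in fPSCs (Myh9 and Rhoa) and 2 were lower (Rock1 and Ppp1cb), shares near the 19% and 13.3% of all tested genes. Their median log2 difference was 0.03. Myh9, the heavy chain of non-muscle myosin IIA, was at 126 and 131 FPKM in EpiSCs and 24.6 to 45.1 FPKM in fPSCs (1.84 ± 0.24, limma adjusted p = 6.35e-05). Rhoa, the GTPase that turns on contraction, was at 254 and 283 FPKM in EpiSCs against 114 to 228 FPKM. Rhoa was at 192 to 228 FPKM in P10, P20 and P30 and at 114 to 146 FPKM in the 4 fPSC libraries of another protocol text. Rock1, its kinase, was at 3.83 and 3.8 FPKM against 5.82 to 9.63 FPKM. The abundant actin-turnover genes Cfl1 and Pfn1 did not pass, with 1097 and 1631 FPKM of Cfl1 in EpiSCs and 934 to 1655 FPKM in fPSCs.

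A list of 12 genes held Srf, its cofactors Mkl1 and Mkl2 and genes that respond to them. In it 11 were higher in EpiSCs than in fPSCs, Mkl1 and Mkl2 included, beside 19% of all tested genes, and none was lower, with a median log2 difference of 2.69. Csrp1, a LIM protein of actin bundles, was at 223 and 275 FPKM in EpiSCs and 12.4 to 22 FPKM in fPSCs. Its mESC values were also well above those of fPSCs, at 71.6 and 70.1 FPKM. Tgfb1i1, an adhesion adaptor also called Hic-5, was at 49.3 and 83.4 FPKM in EpiSCs and 0.162 to 1.48 FPKM in fPSCs. Cyr61, a matricellular protein induced by SRF and Yap, was at 89 and 182 FPKM against 2.06 to 16.1 FPKM. Flna and Actn1, which crosslink actin, were at 228 and 288 FPKM and at 223 and 271 FPKM in EpiSCs, with fPSC ranges of 38.7 to 73.4 and 24.8 to 40.6 FPKM. Srf itself differed by 0.47 ± 0.14 and remained under the fold threshold.

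In the TGF-β list, 6 of 10 genes were higher in EpiSCs than in fPSCs, beside 19% of all tested genes, and none was lower. Tgfb3, at 4.49 and 4.7 FPKM in EpiSCs, was below 1 FPKM in every other fitted library. It was tested only through the EpiSC pair, which set its direction. Tgfb2 would not have passed the filter without that pair either, so nothing is read from the count. The ligand Tgfb2 was at 11.7 and 10.3 FPKM in EpiSCs and 0.0122 to 3.03 FPKM in fPSCs, and the receptor Tgfbr2 was at 7.97 and 14 FPKM against 0.171 to 1.47 FPKM. The ligand Tgfb1 was at 19.6 and 26.9 FPKM in EpiSCs and 2.36 to 9.5 FPKM in fPSCs. Smad7, an inhibitor of the pathway, did not pass, at 15 and 16.4 FPKM in EpiSCs and 7.44 to 25.2 FPKM in fPSCs.

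Of 10 further genes of the smooth muscle lineage, 7 were below 1 FPKM in both EpiSC libraries, while Des and Smtn were higher there than in any other library. The list summed to 93.1 and 122 FPKM in EpiSCs and to 9.42 to 21.2 FPKM in the other 17 libraries. Myh11, the smooth muscle myosin heavy chain, was at 0.0393 and 0.0179 FPKM in EpiSCs, and the cofactor Myocd at 0.116 and 0.054 FPKM. Pln was listed at 0 in both EpiSC libraries. Only 3 genes of the list could be tested, and all were higher in EpiSCs than in fPSCs, beside 19% of all tested genes. They were Des, an intermediate filament of all muscle types, at 51.9 and 56.9 FPKM, Smtn, smoothelin, at 37.7 and 62.5 FPKM, and Kcnmb1 at 1.16 and 1.23 FPKM. Kcnmb1 was below 1 FPKM in every other fitted library. It was tested only through the EpiSC pair, which set its direction, so nothing is read from the count. The fPSC ranges were 2.07 to 6.68 FPKM for Des and 5.43 to 11.3 FPKM for Smtn. The kinase Mylk was at most 0.0779 FPKM in any library.

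Fibroblast genes were also higher in EpiSCs, though not all of them. Their summed level over 12 genes was 263 and 353 FPKM in EpiSCs, against 2.2 to 24.7 FPKM in the other 17 libraries, and 9 of 10 tested genes were higher in EpiSCs than in fPSCs, beside 19% of all tested genes. Col1a1, Col3a1, Fbn1, Lox and Twist2 were below 1 FPKM in every other fitted library. They were tested only through the EpiSC pair, which set their direction, so nothing is read from this count. Col1a1 was at 111 and 153 FPKM, Col1a2 at 72.6 and 102 FPKM, Mmp2 at 46.3 and 63.8 FPKM and Col3a1 at 8.66 and 8.68 FPKM in EpiSCs. In both EpiSC libraries 10 of the 12 genes reached 1 FPKM and none was at 0. Lum was at 0.59 and 0.501 FPKM, Prrx1 at 0.398 and 1.02 FPKM, and Dcn was lower in EpiSCs (2.82 and 1.88 FPKM) than in EpiLCs (4.48 and 6.1 FPKM). Thy1 did not pass, at 4.63 and 4.01 FPKM in EpiSCs and 1.26 to 7.64 FPKM in fPSCs. From the first to the second EpiSC library the fibroblast genes changed by a median log2 ratio of 0.22 (range -0.58 to 0.79, 10 genes), and the contractile genes by 0.02 (range -0.21 to 0.38, 8 genes). The EpiSCs were the only bulk group on MEFs, so RNA of feeders and RNA of EpiSCs cannot be told apart in these libraries, and the part of feeder RNA in the contractile genes was not tested. The EpiSCs also expressed the pluripotency gene Pou5f1, at 226 and 234 FPKM, and Sox2, at 80.8 and 62.3 FPKM. A list of 6 pluripotency genes summed to 352 and 335 FPKM in EpiSCs, below the 528 to 1717 FPKM of the other 17 libraries. In this list 1 gene, Sox2, was higher in EpiSCs than in fPSCs and 4 were lower, beside 19% and 13.3% of all tested genes.

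The sum of the mesoderm genes was highest in the day 4 Epiblastoids, although Hand1 was higher in both EpiSC libraries, at 32.7 and 56.8 FPKM against 16.1 FPKM. In Epiblastoids on day 4 the summed level of 10 mesoderm genes was 607 FPKM, above the 68.6 and 107 FPKM of EpiSCs, while the contractile genes summed to 84.9 FPKM there and to 90.3 FPKM on day 2. Genes of striated muscle summed to 128 FPKM on day 4 of the Epiblastoids and to 4.25 and 3.59 FPKM in EpiSCs. On day 4 Myl7, the atrial myosin light chain, gave 123 FPKM of that sum, and 10 of the 13 genes were below 1 FPKM. Endothelial genes summed to 1.76 and 2.28 FPKM in EpiSCs.

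The genes most like Tagln across all 19 libraries, by Pearson's r of log2(FPKM + 1) among 7825 genes with at least 10 FPKM in 1 library, were Jph2 (r = 0.984), Plau (0.980), Kcnn4 (0.978), Actc1 (0.977) and Thbs1 (0.971). Of mESCs, EpiLCs, EpiSCs and fPSCs, all 5 had their highest mean in EpiSCs. This follows from the search, since Tagln itself was far highest there, so nothing is read from it. Over the 17 other libraries the nearest were Jph2 (0.906), Rpusd3 (0.883), Gle1 (0.868), Ecsit (0.860) and Plau (0.856), so Jph2 and Plau were in both lists. Among the members, Myl9 (0.839) and Tpm2 (0.709) were nearest to Tagln over the 17 libraries and Cald1 (-0.243) was farthest. These values describe libraries that share lines, media and processing.

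In fPSCs at P10 the promoters fell into different chromatin states. H3K4me3, a mark of active and poised starts, and H3K27me3, the mark of Polycomb repression, were averaged as RPKM over 1000 bp to each side of the start, and DNA methylation was averaged over the 100-bp windows with a value there. Each mark is 1 deposited track, so there is no replicate error. Across 22072 promoters the medians were 2.6 RPKM of H3K4me3, 0.305 RPKM of H3K27me3 and 37.4% methylation, and the 90th percentile of H3K27me3 was 1.6 RPKM. The limits used to group the promoters were chosen after the values were seen.

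Tagln, Acta2, Actg2 and Postn had methylated starts with little H3K4me3. Methylation was 86.9% at Tagln (9 windows), 95.2% at Acta2 (12 windows), 87.8% at Actg2 (14 windows) and 90.1% at Postn (8 windows), and 32.7% of all promoters were above 80%. H3K4me3 was 0.414 RPKM at Tagln and Acta2, 0.296 RPKM at Actg2 and 0.059 RPKM at Postn. H3K27me3 was 0.183 RPKM at Tagln, 0.213 RPKM at Acta2 and 0.367 RPKM at Postn, but 1.04 RPKM at Actg2. Over the 7 fPSC libraries these 4 genes had the lowest medians. In the P10 library, the passage of the tracks, Myl9 was at 0.0869 FPKM, below Acta2 at 0.113 FPKM and Tagln at 0.655 FPKM.

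Cnn1, Cnn2, Myl9, Tpm1 and Tpm2 carried both marks. H3K27me3 was 2.15 RPKM at Cnn1, 1.9 RPKM at Cnn2, 2.27 RPKM at Myl9, 2.3 RPKM at Tpm1 and 1.87 RPKM at Tpm2, each above the 90th percentile. H3K4me3 was 2.84, 4.26, 4.5, 5.45 and 2.9 RPKM in the same order, each above the median. Of all promoters, 6.29% met both limits, as did 1 of 12 paralogs with a promoter, Tgfbi. Methylation was 26.1% at Cnn1, 23.8% at Cnn2, 11.8% at Tpm1 and 17.3% at Tpm2, but 52.8% at Myl9, where it was 29.8% when only 500 bp to each side were taken. Within that distance it was 10.7% at Cnn1, 5.09% at Cnn2 and 5.88% at Tpm2. Transcript levels within this set were far apart, from a median of 0.46 FPKM for Myl9 to 34.3 FPKM for Tpm1. The 2 marks were not measured on the same molecules.

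**Figure D4:**
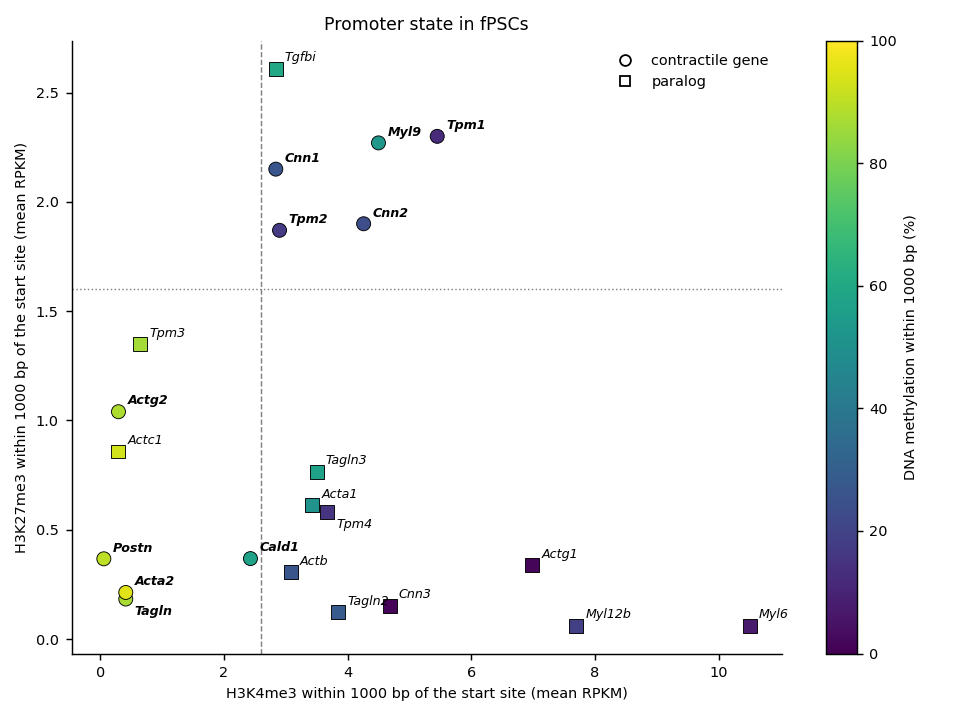
H3K27me3 against H3K4me3 within 1000 bp of the start site in fPSCs, in mean RPKM, for the 10 contractile genes (circles) and 12 paralogs (squares), coloured by DNA methylation in percent. The dashed line is the median H3K4me3 and the dotted line the 90th percentile of H3K27me3 of all promoters. Cnn1, Cnn2, Myl9, Tpm1 and Tpm2 lie above both lines, and Tagln and Acta2 lie close to the origin.

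Tpm1 and Cald1 had start sites in more than 1 state. At the first start of Tpm1 (position 66897213 of chromosome 9, mm9) H3K27me3 was 2.3 RPKM and methylation 11.8%. At its internal start at 66891516, used by short transcripts, H3K27me3 was 0.245 RPKM, H3K4me3 5.74 RPKM and methylation 39.8%. At the first start of Cald1 (34548500 of chromosome 6) H3K4me3 was 2.43 RPKM, H3K27me3 0.368 RPKM and methylation 57.7%. H3K4me3 and methylation were 3.67 RPKM and 25.9% at its start at 34659442, and 0.118 RPKM and 91.9% at that at 34695952. At the 4 starts of Tpm2 H3K27me3 ran from 1.63 to 1.87 RPKM, methylation from 17.3% to 28.3% and H3K4me3 from 2.37 to 2.9 RPKM, and only its first start was above the median of H3K4me3. Methylation was 87.8% to 89.9% at the starts of Actg2 and 90.1% to 92.6% at those of Postn. The deposited gene-level FPKM do not say which of these starts the transcripts came from.

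**Figure D5:**
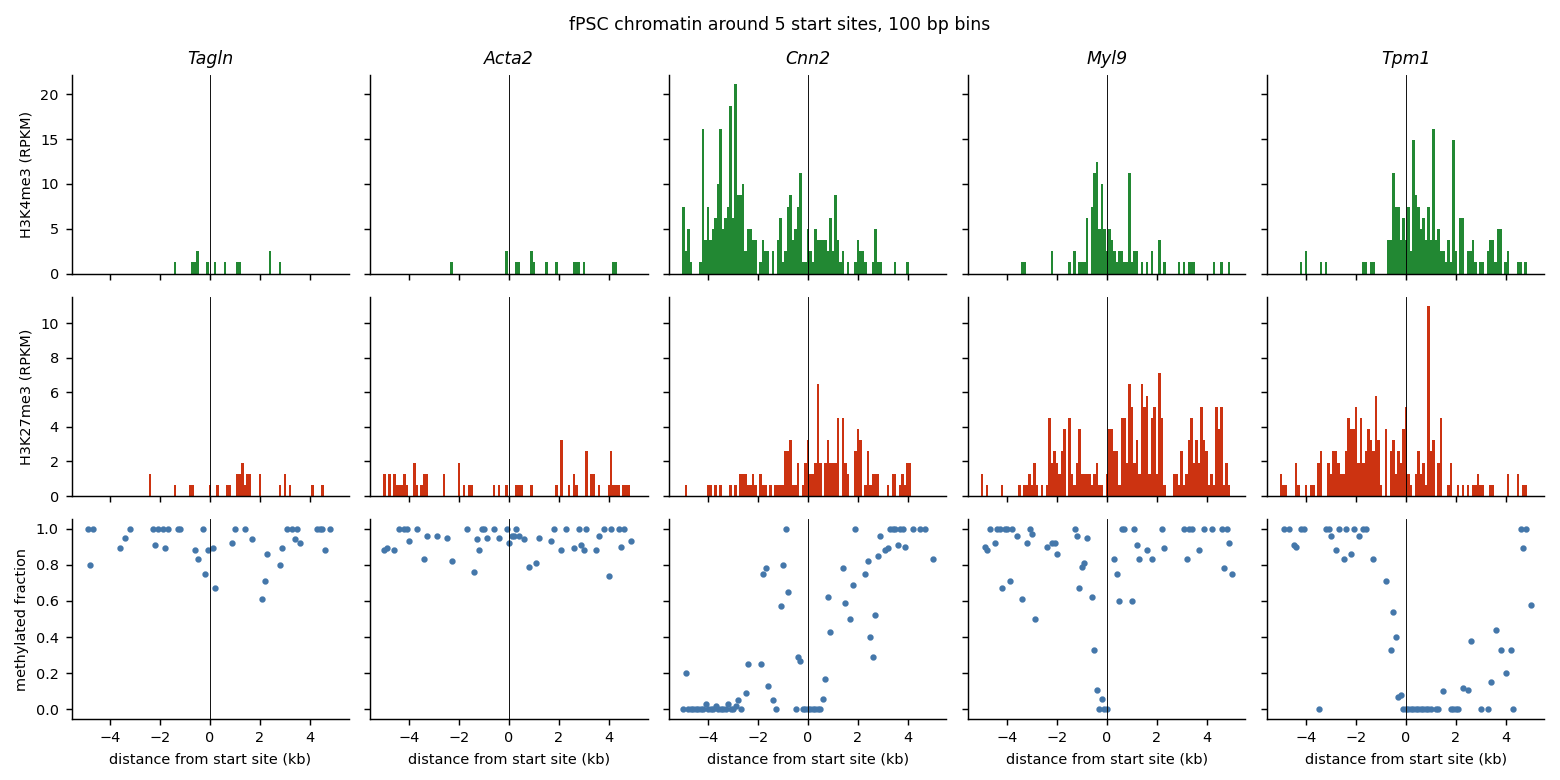
H3K4me3 and H3K27me3 in RPKM and the methylated fraction in 100-bp bins, against distance from the start site in kb, for 5 genes in fPSCs. Tagln and Acta2 are methylated throughout with little of either mark, while Cnn2, Myl9 and Tpm1 have an unmethylated dip at the start with both marks around it. Cnn2 is also unmethylated further upstream, where its H3K4me3 is highest, at 21.14 RPKM in the bin 2900 bp before the start.

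Single fPSCs of 4 clones were sequenced by Smart-seq2. Of 182 cells in the tables, 181 had at least 500 detected genes, and no cell name was shared between the 2 tables, although 86 primer numbers were used in both and 1 name was listed more than once within a table. The median number of counts per cell ran from 19078 to 33883 between clones. Whether the counts are reads or molecules is not stated, and intervals are 95% exact binomial intervals that cover counting error only. Tpm1 had a count in 103 of 181 cells (56.9%, interval 49.4% to 64.2%), Cald1 in 50 (27.6%, 21.3% to 34.7%), Tpm2 in 24 (13.3%, 8.68% to 19.1%) and Cnn2 in 16 (8.84%, 5.14% to 14%). These are the 4 genes with the highest bulk levels in fPSCs. Actg2 had a count in 10 cells, Cnn1 in 3, Postn in 2 and Acta2 in 1, and no row of the tables carries the symbol Tagln or Myl9. Acta2 has a row only for clones 1 and 2, and Postn only for clones 3 and 4. Counts of Cnn2 were uneven, with 48.2% of its 168 counts in 1 cell. Between the 4 clones Tpm1 ran from 64.8 to 160.0 CPM, counts scaled to the total of the clone, without a test, since each clone is 1 culture. Among the paralogs Actb was detected in 179 cells, Cnn3 and Actg1 in 151 each, Tpm3 in 135 and Tagln2 in 70. Detection was incomplete and did not follow bulk levels for all genes. Pou5f1 had a count in only 17 cells (9.39%). Fgf5 had one in 137 (75.7%), Otx2 in 121 (66.9%), Nanog in 111 (61.3%) and Sox2 in 25 (13.8%), although their bulk levels in fPSCs were lower. The reason was not tested. A cell without a count thus cannot be read as a cell without the transcript.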

How the data were processed

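Bulk RNA-seq of 19 libraries was deposited by the authors as 1 table of FPKM, made after trimming with cutadapt 1.11, alignment with TopHat2 2.1.1 to Ensembl mouse cDNA (mm9) and estimation with Cufflinks 2.1.1. No reads per gene are given, so depth is unknown and no count test was run. Of 23608 entries, 4 with repeated symbols were left out. FPKM summed to between 307394 and 414727 per library. The members and gene lists were chosen with earlier results of these data known.

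log2(FPKM + 1) was fitted with limma 3.58.1 (trend, R 4.3.3) over 13 libraries (mESCs, EpiLCs, EpiSCs and 7 fPSCs). A gene had to reach 1 FPKM in 2 or more of them, and p-values were adjusted by Benjamini-Hochberg over all 12513. The step was tested on simulated data. The labels do not say whether replicates were separate cultures, so the spread may be technical. The P10, P20, P30 and P11 fPSC libraries are passages of 1 line, so they were not independent of each other. By the authors' account the P11 cells had been cryopreserved. Of the 7 fPSC libraries, 4 carry another protocol text than the other libraries.

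All members were named. From the lists of paralogs, non-muscle actomyosin, SRF, TGF-β, smooth muscle and fibroblast genes, the 3 with the highest group mean and the 3 with the largest difference between EpiSCs and fPSCs past the threshold were named, with the 5 genes most like Tagln. Other genes (Cnn3, Myl6, Myl12b, Tagln2, Ppp1cb, Srf, Tgfb3, Myh11, Myocd, Pln, Mylk, Lum, Prrx1, Dcn, Thy1, Fbn1, Lox, Twist2, Pou5f1, Sox2, Nanog, Otx2 and Fgf5) were named after their values were seen.

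The authors deposited ChIP-seq of fPSCs as RPKM signal in 100-bp bins (Bowtie2 2.2.2, mm9) and bisulfite sequencing as the methylated fraction in 100-bp windows, without coverage. Whether a track holds 1 replicate or both is not given in the sources used here. Positions were joined to the Gencode annotation of NCBIM37, which is mm9. Single-cell counts per gene were deposited by the authors after Drop-seq_tools, and cells with at least 500 genes were kept. No doublet caller was run, since cells were picked by hand. Sums and shares were computed with pandas 2.3.3 and scipy 1.17.1. Alternatives were a pseudocount of 0.1, no filter, upper-quartile scaling, fewer groups, left-out libraries, the replicate number as a block, other promoter windows and all cells. A gene of the TGF-β list is counted with its list but not reported here by name.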

Additional observations from a re-analysis of the deposited data

Results flagged for a closer look

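Among the 7 long-term fPSC libraries, Actg2 stood apart in the P30 library, where it was at 0.00903 FPKM while the other 6 were listed at 0. The gap to the next library equals the whole range of the group. With 6 libraries at 0, any value above 0 in the remaining library gives this outcome, so nothing is read from it. The value is far below 1 FPKM.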

How the results depend on the processing

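The number of members past the threshold stayed between 8 and 9 for EpiSCs against mESCs and against fPSCs, between 7 and 9 against EpiLCs, between 6 and 8 for EpiLCs against mESCs and between 3 and 4 for fPSCs against mESCs, over all alternatives run. The count of all genes past the threshold was less stable when 1 library was left out. For EpiSCs against EpiLCs it was 4488, and 2425 (without the second EpiSC library) to 3621 with 1 library left out, with 2871 without the second EpiLC library. For EpiSCs against fPSCs it was 4041, and 2455 without the first and 1523 without the second EpiSC library. For EpiLCs against mESCs it was 3706, and 2416 without the first and 2291 without the second mESC library, up to 3019. With fewer samples in a group the lone library is assumed to vary like the other groups.

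Replicate numbers did not pair the samples, since the deviations of same-numbered libraries correlated at 0.20 (mESCs and EpiLCs), -0.20 (mESCs and EpiSCs) and -0.13 (EpiLCs and EpiSCs). With the replicate number as a block, in a fit of mESCs, EpiLCs and EpiSCs alone, 6685, 5196 and 4107 genes were past the threshold for EpiSCs against mESCs, EpiSCs against EpiLCs and EpiLCs against mESCs, with 8, 7 and 7 members. The same fit without the block, chosen after seeing the data, gave 6746, 5357 and 4311, with 8, 7 and 8 members. Leaving out the 46C library, also chosen after seeing the data, gave 4035 genes for EpiSCs against fPSCs and 5173 for fPSCs against mESCs.

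With a pseudocount of 0.1 the log2 differences of low genes grew, as the scale is built to do, for Tagln between EpiSCs and fPSCs from 7.76 to 9.51 and for Acta2 from 7.16 to 9.53. Without the first EpiLC library Myl9 in EpiSCs against EpiLCs was at -0.20, and without the second at 0.97, beside 0.38 with both. No depth is known for FPKM, and methylation has no coverage, so values near 0 FPKM and promoters with few windows are the least certain. Within 5000 bp of the start, H3K4me3 was 1.28 RPKM at Myl9 and 1.24 RPKM at Cnn1, and H3K27me3 at Cnn2 was 0.969 RPKM. Of the 5 genes most like Tagln over 19 libraries, 2 were among the 5 over the 17 without EpiSCs. The count of fibroblast genes past the threshold moved by more than 1.5 times in 12 of 49 settings and that of the paralogs in 5 of 49.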
